A study of Mus musculus with 3 samples.

Results

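Plasma cells of the inflamed mouse colon are described here, as captured in 3 single-cell RNA libraries made from the lamina propria of the large intestine. A barcode with at least 500 unique molecules (UMIs), at least 200 genes and at most 10% mitochondrial UMIs was kept. A kept cell counted as a plasma cell when 11 immunoglobulin constant region and Jchain genes together held at least 10% of its UMIs and Mzb1, Derl3 and Xbp1 together had at least 2 UMIs. The rule found 1331 plasma cells among 19109 kept cells, or 6.97%. They numbered 699 of 7367 in the rat IgG library, 313 of 5852 in the DATK32 library and 319 of 5890 in the MECA367 library. These genes chose the cells, so their levels below are a description and support nothing by themselves.

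All mice were C57/BL6J and had acute colitis from dextran sulfate sodium (DSS), a detergent-like polymer that injures the colonic epithelium: 1.5% DSS in the water for 7 days, then plain water for 3 days. The control group received rat IgG, the others received DATK32 or MECA367, each 250 µg into the peritoneum 3 times a week. Viable CD45+ cells were sorted from the large intestine, and each group is 1 library; the number and age of the mice behind it are not in the labels. No difference between groups therefore has a replicate check, and brackets hold 95% intervals that cover counting error only. The labels call DATK32 the ontamalimab surrogate and MECA367 the vedolizumab surrogate; from general knowledge DATK32 binds the integrin alpha4beta7 and MECA367 binds its vessel ligand MAdCAM-1, which is the opposite assignment, so groups are named by clone.

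A plasma cell is the end stage of the B cell lineage and secretes antibody from a greatly enlarged endoplasmic reticulum. In the gut most plasma cells make IgA, which the J chain (Jchain) joins into dimers; the epithelial receptor encoded by Pigr carries these dimers into the lumen. Plasmablasts are born in gut-associated lymphoid tissue, travel through the blood and enter the lamina propria with the help of alpha4beta7 integrin and the chemokine receptors CCR9 and CCR10. Each cell carries 1 rearranged heavy chain and 1 rearranged kappa or lambda light chain, so the variable segments in its RNA mark its line of descent in part.

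In the rat IgG library 2 combinations of variable segments were carried by many plasma cells, and both used the light segment Iglv1. The 3 segments are shown because these combinations set apart that library in the results below. Each sequence is the last 300 bases of the spliced coding sequence of a germline segment, 5′ to 3′, from the GENCODE M21 annotation of GRCm38 (mm10), and capitals mark the bases that differ from its nearest relative among the annotated segments of its family. Ighv1-76 lies at chr12:115847881-115848331 on the minus strand and is 94.6% identical to Ighv1-77 (19 bases differ). Ighv2-9-1 lies at chr12:113769850-113770302 on the minus strand and is 94.6% identical to Ighv2-6-8 (19 bases differ). Iglv1 lies at chr16:19085017-19085500 on the minus strand and is 96.9% identical to Iglv2 (11 bases differ). Each has 2 exons and 350 or 351 coding bases, of which the stretches shown hold 15, 17 and 8 of the differing bases. No segment carries the junction that rearrangement adds, so a shared pair of segments is not a clone, and reads from close relatives can be credited to the wrong segment.
Ighv1-76: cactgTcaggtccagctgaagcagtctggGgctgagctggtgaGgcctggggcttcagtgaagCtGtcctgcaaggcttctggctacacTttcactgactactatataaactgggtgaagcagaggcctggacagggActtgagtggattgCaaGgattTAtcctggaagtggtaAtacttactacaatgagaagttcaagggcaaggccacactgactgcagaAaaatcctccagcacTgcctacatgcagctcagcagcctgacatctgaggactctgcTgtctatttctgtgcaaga
Ighv2-9-1: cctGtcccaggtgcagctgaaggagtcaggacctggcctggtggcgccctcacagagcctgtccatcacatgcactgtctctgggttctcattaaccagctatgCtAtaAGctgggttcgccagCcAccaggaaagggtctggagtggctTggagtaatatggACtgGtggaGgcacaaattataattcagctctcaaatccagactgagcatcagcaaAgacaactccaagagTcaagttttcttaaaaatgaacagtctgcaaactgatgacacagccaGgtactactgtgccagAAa
Iglv1: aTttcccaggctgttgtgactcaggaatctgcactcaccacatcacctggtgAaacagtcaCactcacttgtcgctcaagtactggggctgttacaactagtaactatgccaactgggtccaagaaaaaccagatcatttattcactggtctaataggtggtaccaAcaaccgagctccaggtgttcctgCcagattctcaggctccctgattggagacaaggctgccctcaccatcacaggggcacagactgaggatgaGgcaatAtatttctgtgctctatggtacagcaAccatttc

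The deposited libraries held 30359331, 28030376 and 27846540 UMIs over 10826, 8445 and 8387 barcodes for rat IgG, DATK32 and MECA367, and 29.6% to 31.9% of barcodes exceeded the mitochondrial limit. Plasma cells had a median of 3465, 5188 and 7239 UMIs in that order, against 1320, 1426 and 1731 in the other kept cells. Plasma cells were thus deepest with MECA367 and shallowest with rat IgG. Barcodes shared by kept cells of different libraries numbered 11, 9 and 7 for the 3 pairs of libraries, and 0 plasma cell barcodes were shared. Although the sort was for CD45+, marker lists placed 2712, 2090 and 2806 of the kept cells among leukocytes, with every plasma cell counted there; the remaining kept cells had no more leukocyte UMIs than epithelial, stromal and endothelial ones, and they form part of the denominators below. No doublet caller was run, and doublets remain in all counts. Immunoglobulin RNA was widespread outside plasma cells as well: Igha UMIs were found in 39.0% to 47.4% of the other kept cells, and Jchain UMIs in 9.03% to 10.1%.

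The plasma cells were IgA cells in all 3 groups. Igha, the IgA heavy chain constant gene at chr12:113254830-113260236, was the top heavy chain constant gene in 1318 of 1331 cells. Its share was 98.9% (97.8 to 99.5) with rat IgG, 98.7% (96.8 to 99.7) with DATK32 and 99.7% (98.3 to 99.99) with MECA367. The intervals overlapped for every pair of libraries. Of the 13 other cells, 7 had Ighm, 4 had Ighg1 and 2 had Ighg2b on top, while Ighg2c, Ighg3, Ighe and Ighd led in 0 cells. The call was rarely close: at least 80% of heavy chain constant UMIs belonged to 1 class in 697, 311 and 319 cells. The planned tests of IgA against IgM and IgG cells could not be made, as no library held 20 cells of either class.

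Immunoglobulin took a similar part of a plasma cell's RNA in each group. The immunoglobulin genes of the rule held a median of 49.3%, 53.4% and 54.5% of a plasma cell's UMIs with rat IgG, DATK32 and MECA367, against 0.0831%, 0.0483% and 0.0392% in the other kept cells. Igha alone made up 14.2%, 14.2% and 13.8% of all plasma cell UMIs. Jchain, at chr5:88519809-88527891, gave 28.7, 31.9 and 39.9 UMIs per 100 Igha UMIs, the most in the MECA367 library. Mzb1, a chaperone of antibody assembly, was detected in 92.8%, 94.9% and 96.6% of plasma cells and in 0.849% to 1.92% of the others. Few cells lay near the limits of the rule. Between 10% and 12% immunoglobulin stood 5, 1 and 1 plasma cells, and 1, 3 and 2 cells failed with 8% to 10%. Of plasma cells, 36, 7 and 2 had exactly 2 UMIs of Mzb1, Derl3 and Xbp1, and 19, 9 and 5 cells with enough immunoglobulin failed with 1.

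Plasma cells formed a smaller share of the kept cells in both antibody libraries than in the rat IgG library. They made up 9.49% (8.83 to 10.2) of kept cells with rat IgG, 5.35% (4.79 to 5.96) with DATK32 and 5.42% (4.85 to 6.02) with MECA367. A share or gene was called higher or lower at a fold of at least 1.5 with intervals apart; DATK32 was lower by that rule (log2 ratio -0.83, -1.01 to -0.64), and so was MECA367 (-0.81, -0.99 to -0.62). Both ratios use the same rat IgG library. DATK32 and MECA367 were not called different (-0.02, -0.24 to 0.20). Among leukocytes alone, plasma cells were 25.8% (24.1 to 27.5), 15.0% (13.5 to 16.6) and 11.4% (10.2 to 12.6), again lower with both antibodies.

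Mature B cells were fewer in the same libraries, with 162, 42 and 67 kept cells holding at least 3 UMIs over a short list of B cell genes that includes Ms4a1, Cd79a and Cd79b. Plasma cells made up 81.2%, 88.2% and 82.6% of plasma and mature B cells together. No pair of libraries was called different in this measure, and the log2 ratios against rat IgG were positive, at 0.12 for DATK32 and 0.03 for MECA367. Without the cells called for the 2 leading segment pairs, 583 of 7251 rat IgG cells were plasma cells (8.04%). DATK32 then remained lower at -0.59, and MECA367 was no longer called, at -0.57. A share cannot tell fewer plasma cells from more of the other cells.

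**Figure D1:**
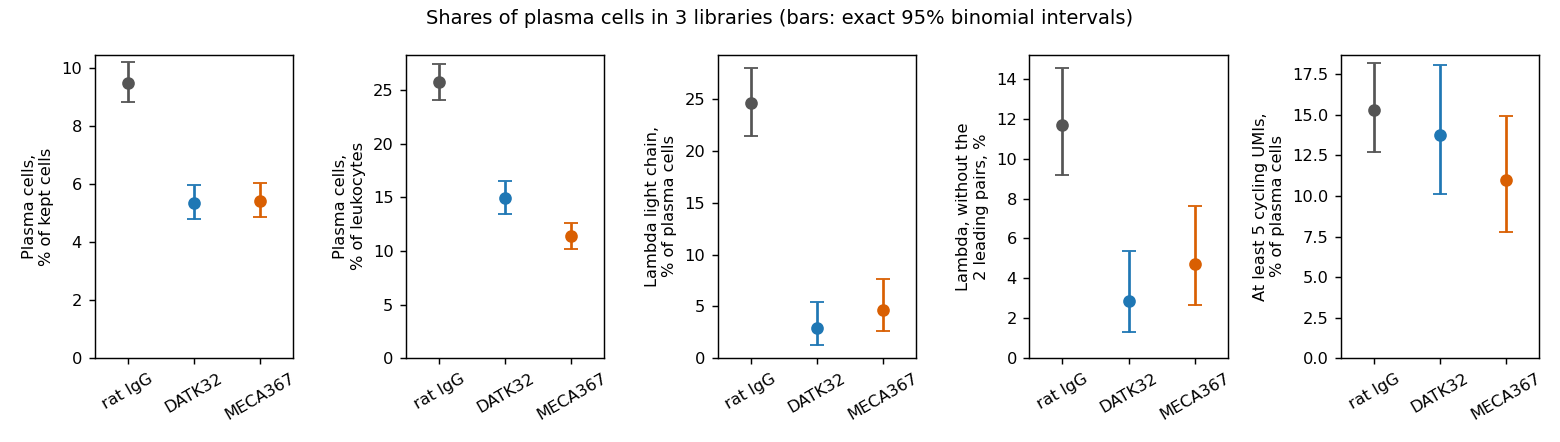
Shares of cells in percent for the rat IgG, DATK32 and MECA367 libraries, with exact 95% intervals as bars: plasma cells among kept cells and among leukocytes, lambda cells among plasma cells with and without the leading segment pairs, and plasma cells with at least 5 cycling gene UMIs. The rat IgG library lies above the others in the 4 panels of plasma cell and lambda shares, and the intervals of the cycling share overlap.

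Light chain use differed between the libraries. Lambda chains, encoded by Iglc1, Iglc2 and Iglc3 on chromosome 16, outnumbered the kappa chain of Igkc on chromosome 6 in 172 of 699 plasma cells with rat IgG. This was 24.6% (21.5 to 28.0), against 2.88% (1.32 to 5.39), or 9 cells, with DATK32 and 4.70% (2.66 to 7.64), or 15 cells, with MECA367. Both antibody libraries were lower than rat IgG, with log2 ratios of -3.10 and -2.39, and they did not differ by the rule from each other (-0.71). Cells with at least 1000 UMIs were also thinned to that depth and the plasma cell rule was applied anew. Lambda was then 25.9%, 3.94% and 3.98% of 522, 203 and 226 plasma cells. Outside plasma cells lambda was also highest with rat IgG: lambda chains held 19.1%, 6.66% and 5.88% of the light chain UMIs in the other kept cells. What part free RNA from the plasma cells had in this was not tested.

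The 3 lambda constant genes are not equally separable. Iglc2 (chr16:19198396-19200351) and Iglc3 (chr16:19065230-19065681) are 96.2% identical, with 12 differing bases, while Iglc1 (chr16:19061618-19062071) is 73.4% and 74.5% identical to them. Among cells with at least 80% lambda, Iglc1 led in 68 cells with rat IgG, Iglc3 in 64 and Iglc2 in 14. In the DATK32 library Iglc1 led in all 8 such cells. In the MECA367 library Iglc1 led in 9, Iglc2 in 2 and Iglc3 in 2. Cells with more than 20% of both kappa and lambda were 49 with rat IgG (7.01%), 4 with DATK32 and 5 with MECA367. The 49 had a median of 6259 UMIs against 3337 in the other rat IgG plasma cells, and 51.0% of them, against 8.46%, carried a second Ighv segment with at least 2 UMIs. The part of doublets in them was not tested.

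Segment use was concentrated in the rat IgG library and spread out in the others. A heavy and a light segment could be called, each with at least 2 UMIs and at least 50% of its kind, in 457, 246 and 248 plasma cells (65.4%, 78.6% and 77.7%). These limits were set after the data were seen. The cells carried 176, 138 and 153 distinct pairs. The chance that any 2 cells of a library shared a pair was 3.81% with rat IgG, 1.019% with DATK32 and 0.643% with MECA367, which equals 26.3, 98.2 and 155 equally frequent pairs. The 10 most frequent pairs held 44.2%, 28.5% and 21.8% of the called cells.

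Ighv1-76 with Iglv1 led in the rat IgG library, with 61 of 457 called cells (13.3%, 10.4 to 16.8). Ighv2-9-1 with Iglv1 followed with 55 cells (12.04%, 9.20 to 15.4). Each was seen in 1 cell of the DATK32 library (0.407%) and 1 cell of the MECA367 library (0.403%). Of these single cells, only the MECA367 cell with Ighv2-9-1 had at least 80% lambda. The others had at least 80% kappa, so their Iglv1 call does not match their light chain constant gene. Next came Ighv6-3 with Igkv4-57, in 19 rat IgG cells (4.16%) and in 0 cells of the others, which, taken as 3 counts, allows up to 1.22% and 1.21% there. The leading pair of the DATK32 library, Ighv1-63 with Igkv15-103, held 12 of 246 cells (4.88%, 2.55 to 8.37). In the MECA367 library Ighv1-53 with Igkv10-94 and Ighv1-76 with Igkv5-43 held 8 of 248 cells each (3.23%, 1.40 to 6.26). Of 396 pairs in all, 336 were seen in 1 library, 49 in 2 and 11 in all 3, and Ighv1-26 with Igkv1-135 was among the shared ones. The 11 include both leading rat IgG pairs only through the single cells above, most of them kappa cells. With at least 3 UMIs and 80% asked of each segment, 200 rat IgG cells remained, and the same 2 pairs held 43 and 44 of them.

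**Figure D2:**
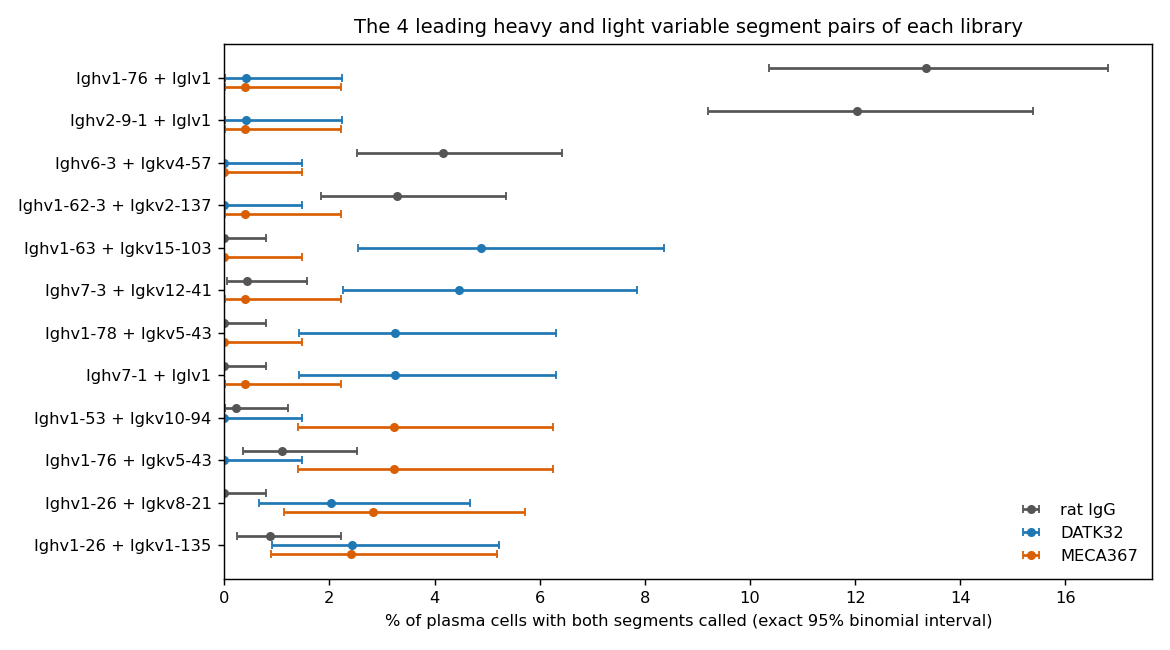
Percent of plasma cells with both segments called that carry each of the 4 leading heavy and light segment pairs of every library, with points for the libraries and exact 95% intervals as bars. The 2 Iglv1 pairs stand at 13.3% and 12.04% in the rat IgG library, and no pair reaches 5% in the DATK32 or MECA367 library.

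The 2 leading pairs used different lambda constant genes. Of the 47 Ighv1-76 cells with at least 80% lambda, 45 had Iglc3 on top, with medians of 658 Iglc3, 2 Iglc1 and 2 Igkc UMIs. Of the 45 Ighv2-9-1 cells of that kind, 44 had Iglc1 on top, with medians of 1140 Iglc1 and 0 Iglc3 UMIs. Iglv1 lies upstream of both constant genes on its strand. Of the 135 rat IgG lambda cells with a called pair, 104 (77.04%) carried 1 of the 2 pairs. Without the cells called for these pairs, lambda was 11.7% of the remaining rat IgG plasma cells (68 of 583). DATK32 and MECA367 were still lower, by log2 ratios of -2.02 and -1.31. Cells with no called pair stayed in, and which of them carried these pairs is unknown. Among called rat IgG cells without those 104, 31 of 353 (8.78%) were lambda. Of called cells, 3.25% with DATK32 and 4.84% with MECA367 were lambda, and no call was made on this measure.

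Cells of the leading pairs were IgA cells like the rest. All 61 and 55 had Igha as their heavy constant gene. Their median immunoglobulin share was 48.1% and 59.0%. It was 45.6% in the 19 cells of the next pair, Ighv6-3 with Igkv4-57, and 49.7% in the 322 remaining called cells. At least 2 UMIs of the cycling genes were found in 31.1% (19.9 to 44.3) and 16.4% (7.77 to 28.8) of the leading pairs' cells. The values were 42.1% (20.3 to 66.5) for Ighv6-3 with Igkv4-57 and 28.6% (23.7 to 33.8) for the 322 remaining cells. No call was made on these shares. Iglv1 RNA in kappa cells limits these calls. Kappa cells carried Iglv1 UMIs in 61.9%, 79.4% and 89.0% of cases, with medians of 1, 3 and 7 UMIs, while 0.307% to 0.915% of the other kept cells did so. When only light segments of the same kind as the constant gene were used, Ighv1-76 with Iglv1 kept 10.9% of the called cells.

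Genes that the rule did not read also carried the plasma cell label. Levels are counts per 1000000 non-immunoglobulin UMIs of a group (CPM) in the order rat IgG, DATK32 and MECA367. Tnfrsf17, the receptor BCMA through which plasma cells receive survival signals, stood at 224, 225 and 276 CPM, against 7.14, 0 and 0 in mature B cells and 0.127 to 0.579 in all the other kept cells. Eaf2 stood at 272, 261 and 338 CPM and at 1.84 to 1.93 in the other kept cells. Prdm1, the transcription factor BLIMP-1 that sets the plasma cell state, was at 148, 157 and 163 CPM against 16.4 to 29.1, and Irf4, its partner, at 151, 142 and 108 CPM. Sdc1, the surface marker CD138 that epithelium also expresses, was at 290, 335 and 303 CPM against 54.2 to 97.7. The levels of Tnfrsf17, Eaf2, Prdm1 and Sdc1 were above those of the other kept cells in every library.

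Over the whole list of plasma cell identity genes, 18 of 20 were at least 2-fold above the other kept cells in all 3 libraries. The background was 523 of 7285 genes (7.18%), and since the rule chose the cells this is a description of them. Cd38, often used as a plasma cell marker, was among the exceptions, at 45.4, 46.5 and 73.2 CPM against 102 to 132 in the other kept cells. Cd27 was at 31.6, 42.4 and 27.4 CPM.

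Genes of the B cell stage were low. Ms4a1 (CD20) stood at 23.0, 4.13 and 2.41 CPM against 353, 507 and 285 in mature B cells, which Ms4a1 helped to choose. Pax5, the B cell identity factor that plasma cells switch off, was at 16.4, 3.10 and 0.805 CPM. Cd79a, a signalling chain of the B cell receptor, was kept at 432, 413 and 492 CPM, and Cd74, the invariant chain of antigen presentation, at 3062, 2881 and 2943 CPM. A UMI of a short list of B cell markers, Ms4a1, Pax5, Fcer2a and Cr2 among them, was found in 74 plasma cells with rat IgG (10.6%), 6 with DATK32 (1.92%) and 7 with MECA367 (2.19%). B cell transcripts in plasma cells were thus most frequent in the library with the most mature B cells, and what part free RNA or doublets had was not tested.

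**Figure D3:**
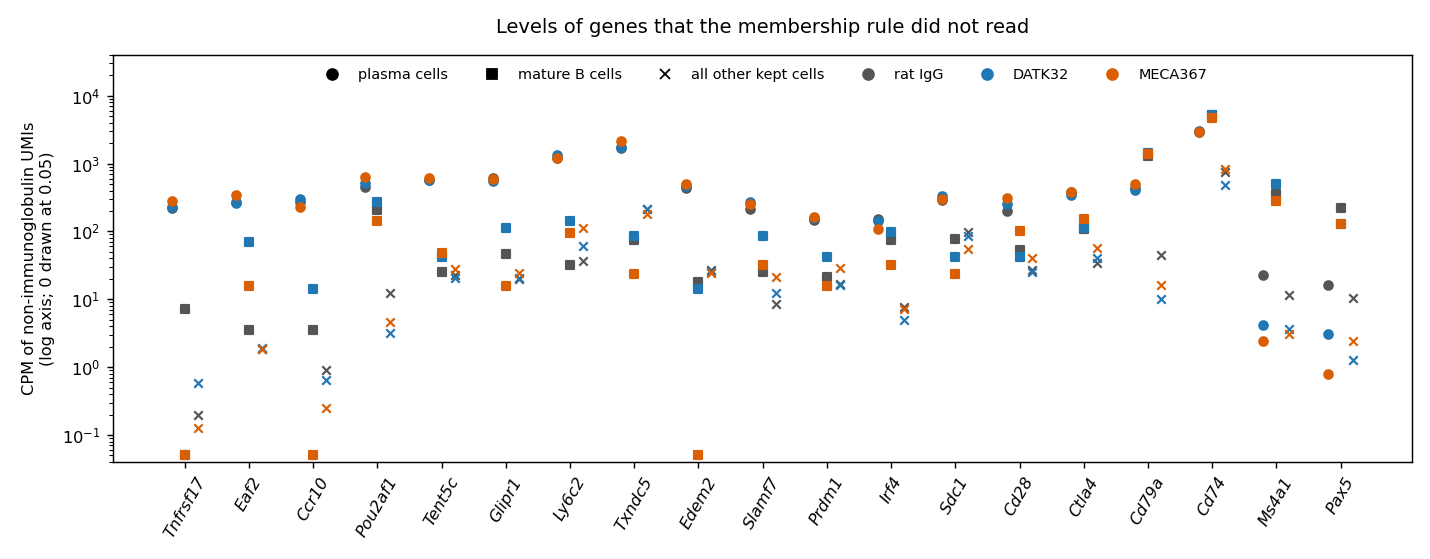
CPM on a log axis of 19 genes that the rule did not read, with 1 point per library: circles for plasma cells, squares for mature B cells and crosses for all other kept cells, with levels of 0 drawn at 0.05. Tnfrsf17, Eaf2 and Ccr10 are high in plasma cells and near the bottom elsewhere, while Ms4a1 and Pax5 are high in mature B cells.

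The secretory apparatus was expressed at high levels. Hspa5 (BiP), which holds free heavy chains until a light chain binds, stood at 5411, 4640 and 5155 CPM against 1598, 1686 and 1999 in the other kept cells. Hsp90b1 (GRP94), which folds receptors and immunoglobulin chains, was at 5791, 4880 and 5126 CPM against 803, 902 and 915. Creld2 was at 610, 495 and 513 CPM, against 42.6 to 53.0. Edem2, which marks misfolded glycoproteins for disposal, was at 441, 460 and 496 CPM against 24.2 to 27.0. Ssr4, a subunit of the translocon-associated complex, was at 2231, 2162 and 3117 CPM against 378 to 385. Of the endoplasmic reticulum chaperones 17 of 24 were at least 2-fold above the other cells in all 3 libraries, as were 13 of 21 genes of the unfolded protein response and disposal, 14 of 33 of the translocon and glycosylation, and 5 of 24 of transport to the Golgi.

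The promoters of the chaperone genes often held the endoplasmic reticulum stress element, the letters CCAAT, any 9 bases and CCACG or, on the other strand, CGTGG, any 9 bases and ATTGG, bound by NF-Y and ATF6. In RefSeq promoter windows of GRCm38.p6, 250 bases before to 50 after the start, the motif was found in 8 of 22 matched chaperone genes (36.4%) and in 37 of 27025 genes in all (0.137%). The 8 were Calr, Canx, Creld2, Dnajc3, Ero1b, Hsp90b1, Hspa5 and Pdia6. It was in 1 of 19 genes of the unfolded protein response and disposal (Syvn1) and in 0 of 25 translocon, 0 of 21 transport and 0 of 17 plasma cell identity genes. A match is a description and no evidence of binding. Stretches around the motif are shown for 4 of the chaperones, each written along its own gene's strand, with the fixed letters in capitals: Hspa5 at chr2:34772010-34772058 (plus), Hsp90b1 at chr10:86705518-86705671 (minus, 2 matches), Calr at chr8:84847060-84847108 (minus) and Creld2 at chr15:88819505-88819553 (plus).
Hspa5: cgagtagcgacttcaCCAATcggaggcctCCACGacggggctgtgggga
Hsp90b1: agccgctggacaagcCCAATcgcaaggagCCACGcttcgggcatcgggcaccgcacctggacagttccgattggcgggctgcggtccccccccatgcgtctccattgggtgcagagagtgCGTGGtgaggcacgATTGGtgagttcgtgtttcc
Calr: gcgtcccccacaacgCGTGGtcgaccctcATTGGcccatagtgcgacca
Creld2: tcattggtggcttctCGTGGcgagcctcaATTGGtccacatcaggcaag

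Homing receptors of gut plasma cells were present in every library. Ccr10, the receptor for the colonic epithelial chemokine CCL28, stood at 267, 304 and 229 CPM against 0.253 to 0.918 in the other kept cells. Ccr9, the receptor for the small intestinal chemokine CCL25, was at 27.0, 45.5 and 54.7 CPM and in 5.29%, 10.5% and 16.3% of plasma cells. It was called higher with MECA367 (log2 ratio 1.01) and not with DATK32 (0.75). Shares of cells with a UMI, here and below, also depend on depth, which rose from rat IgG to DATK32 to MECA367. The subunits of alpha4beta7 were not called different in any comparison: Itga4 was at 312, 290 and 255 CPM and Itgb7 at 87.5, 105 and 81.3 CPM. Ccr7, a receptor for lymph node chemokines, was at 90.1, 63.0 and 40.2 CPM and called lower with MECA367 (-1.15). Mature B cells held more of it, at 400, 282 and 285 CPM.

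Of 14 measured survival genes 3 were higher and 0 lower with MECA367, beside 3.91% higher over all genes, and with DATK32 0 of 13 differed. Cd28, a costimulatory receptor that supports plasma cells, was at 197, 250 and 309 CPM and higher with MECA367 (0.65). Mcl1, which plasma cells need to survive, was at 545, 628 and 739 CPM and not called. Bax, which promotes cell death, was at 81.6, 93.0 and 150 CPM and also higher with MECA367 (0.87). Bcl2a1b was at 69.7, 89.9 and 167 CPM and higher with MECA367 (1.26), but the other kept cells moved alike, at 53.8, 76.5 and 186 CPM. Ctla4, an inhibitory relative of Cd28, was at 381, 348 and 386 CPM against 34.0 to 57.5 in the other cells, with no call. Il10 was at 26.3, 49.6 and 17.7 CPM, with UMIs in 4.86%, 4.79% and 5.33% of plasma cells. It was called higher with DATK32 than with rat IgG (0.91) and MECA367 (1.45), but 5 cells held 75% of its DATK32 UMIs.

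Between libraries, few genes of antibody secretion and plasma cell identity were called, while 3 interferon-induced genes were higher with DATK32 and 8 with MECA367, and some single genes differed several-fold. By the fold and interval rule, 149 of 6068 measured genes (2.46%) differed between DATK32 and rat IgG, 63 higher (1.04%) and 86 lower (1.42%). Between MECA367 and rat IgG 643 of 6294 (10.2%) differed, 246 higher (3.91%) and 397 lower (6.31%). Between DATK32 and MECA367 337 of 5371 (6.27%) differed, 172 higher (3.2%) and 165 lower (3.07%). The first pair of comparisons share the rat IgG library, so their counts are not independent. The split depended on the scale. The higher share of the calls was 42.3%, 38.3% and 51.0% in CPM of non-immunoglobulin UMIs, 24.6%, 20.9% and 64.6% in CPM of all UMIs, and 53.7%, 55.2% and 40.8% with TMM factors; CPM of all UMIs moved the median log2 ratio to -0.11, -0.21 and 0.07, from -0.04, -0.07 and 0.01.

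Markers of other cells moved with the groups inside plasma cells. All 6 measured neutrophil genes were higher with MECA367 than with rat IgG, and the neutrophil list held 0.179%, 0.160% and 0.597% of non-immunoglobulin UMIs in plasma cells, against 0.393%, 0.594% and 2.61% in the other kept cells. The epithelial list held 0.352%, 0.358% and 0.185% in plasma cells and 1.58%, 1.60% and 1.19% in the others, and 9 of its 12 measured genes were lower with MECA367. The myeloid list held 0.0489%, 0.0765% and 0.132% of plasma cell UMIs outside immunoglobulin, and 3 of its 5 measured genes were higher with DATK32 and 5 of 8 with MECA367. No defining neutrophil marker was at 0; S100a8 stood at 402, 257 and 1640 CPM. More than 1% of non-immunoglobulin UMIs on the lists of other lineages was found in 100 (14.3%), 37 (11.8%) and 54 (16.9%) plasma cells. Without these, 106 genes differed for DATK32, 66 of them among the 149, and 394 for MECA367, 288 of them among the 643.

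Plasma cell identity genes gave 0 higher and 1 lower call of 20 with DATK32, the lower being Fkbp11 (297, 190 and 294 CPM, log2 ratio -0.64), a prolyl isomerase of the secretory pathway. With MECA367 1 was higher, Cd38 (0.69), and 0 lower. The 24 chaperones gave 0 calls with DATK32 and 1 with MECA367, Selenok (912, 844 and 1403 CPM, 0.62). Of 20 genes of the unfolded protein response and disposal, 1 was lower with DATK32, Os9 (151, 97.1 and 129 CPM, -0.63), and 0 differed with MECA367. Of 33 translocon genes, 0 differed with DATK32 and 1 was lower with MECA367, Rpn1 (365, 270 and 197 CPM, -0.89), a subunit of oligosaccharyltransferase. Of 24 transport genes 0 differed in either comparison. The medians of these lists lay between -0.09 and 0.10, beside -0.04 and -0.07 over all measured genes. Over all genes 2.46% and 10.2% were called, so the DATK32 counts are near the background.

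Interferon-induced genes were higher in part. With DATK32 3 of 18 measured were higher and 0 lower, with a median of 0.48, beside 1.04% higher over all genes. With MECA367 8 of 19 were higher and 0 lower, with a median of 0.65, beside 3.91%. Myeloid markers in plasma cells moved the same way, with 3 of 5 and 5 of 8 measured genes higher (medians 0.64 and 1.22); their part in this result was not tested. Isg15, a ubiquitin-like protein, rose from 65.8 CPM with rat IgG to 124 with DATK32 and 171 with MECA367. Gbp2, a guanylate-binding protein, stood at 84.2, 164 and 256 CPM and was called higher with both (0.96 and 1.60). Bst2 (tetherin), which plasma cells express at a high level, was at 595, 884 and 1046 CPM and called with MECA367 (0.81). Zbp1 was at 97.4, 116 and 165 CPM, called with MECA367 (0.76). Ifi27l2a was at 316, 616 and 320 CPM and was called higher with DATK32 (0.96), both against rat IgG and against MECA367 (0.94).

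The other kept cells moved in the same direction for most of these genes. They held 72.1, 123 and 232 CPM of Isg15, 129, 178 and 402 of Gbp2, 87.2, 105 and 160 of Bst2, and 36.7, 49.6 and 98.9 of Zbp1. Of Ifi27l2a they held 336, 531 and 668 CPM, and plasma cells stood above them only with DATK32. In plasma cells Gbp2 was thus below, and Isg15 close to or below, the level around them, and for both the part of free RNA was not tested. Bst2 and Zbp1 were above the other cells in every library. Without plasma cells that held markers of other lineages, Isg15 was no longer called with DATK32 (0.68). In plasma cells with no B cell marker and at most 1% other-lineage UMIs, Gbp2 was lower, at 60.9, 89.4 and 107 CPM. Bst2 stood at 688, 982 and 1207 CPM in those cells. No call was made on these levels. Over all plasma cells, 5 cells held 18.0%, 39.0% and 30.2% of the Gbp2 UMIs.

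The single genes with the largest ratios were picked by a rule: the 8 highest and 8 lowest ratios per comparison among well-counted genes at least as high in plasma cells as around them. Slpi, an inhibitor of neutrophil elastase and other proteases, stood at 803 CPM with rat IgG, 1373 with DATK32 and 2351 with MECA367, against 100, 127 and 389 in the other kept cells. It was detected in 38.3%, 53.7% and 68.3% of plasma cells and called higher with DATK32 (0.77) and MECA367 (1.55). The 5 cells with most Slpi held 21.5%, 32.8% and 27.5% of its UMIs. Prg2, which encodes the major basic protein known from eosinophils, was hardly found outside plasma cells, at 147, 287 and 307 CPM against 0.131, 0.257 and 0.253. It was in 23.3%, 46.0% and 54.5% of plasma cells and called higher with DATK32 (0.97) and MECA367 (1.06). For both genes the share of cells with a UMI also depends on depth, which rose in the same order.

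Serpina3f, a serine protease inhibitor, was at 44.1, 79.6 and 198 CPM against 5.38, 7.66 and 19.6 and called higher with DATK32 (0.85) and MECA367 (2.15). The 5 cells with most Serpina3f held 38.8% of its UMIs with rat IgG and 46.8% with DATK32. Rgcc, a regulator of the cell cycle, was at 264, 269 and 573 CPM and was called higher with MECA367 than with rat IgG (1.11), and lower with DATK32 than with MECA367 (-1.09). Gpnmb, a membrane glycoprotein, was at 27.6, 28.9 and 62.8 CPM and called higher with MECA367 (1.17), while the other kept cells held 12.5, 7.34 and 2.91 CPM. Ly6k, a surface protein of the Ly6 family, went the other way, at 110, 73.4 and 31.4 CPM against 3.54, 2.45 and 0.759, and was called lower with MECA367 (-1.78). For Ly6k 5 cells held 15.6% of the UMIs with rat IgG and 56.3% with DATK32. The naming rule asked that each be at least as high in plasma cells as around them in the higher library, so that excess is no finding.

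Ebf1, an early B cell factor, had the lowest ratio among the genes eligible for naming in both comparisons with rat IgG, at 100, 22.7 and 20.1 CPM (-2.08 and -2.27). Mature B cells held 899, 662 and 824 CPM of it. The other kept cells stood highest with rat IgG as well, at 62.3, 22.6 and 31.3 CPM. Among plasma cells without markers of B cells and other lineages, Ebf1 was at 53.8, 19.3 and 20.2 CPM. It was found in 7.28%, 4.44% and 5% of these cells, against 13.3%, 5.75% and 5.33% of all plasma cells. Ifng and Gzmb, products of T and NK cells, were unevenly spread over cells. Ifng stood at 14.5, 12.4 and 206 CPM, and 5 cells held 92.2% of its UMIs in the MECA367 library. Gzmb was at 60.5, 44.4 and 177 CPM, with 60.5% of its MECA367 UMIs in 5 cells. Nmt1 (214, 171 and 81.3 CPM) stood in the same order in the other kept cells, at 161, 125 and 62.4 CPM.

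**Figure D4:**
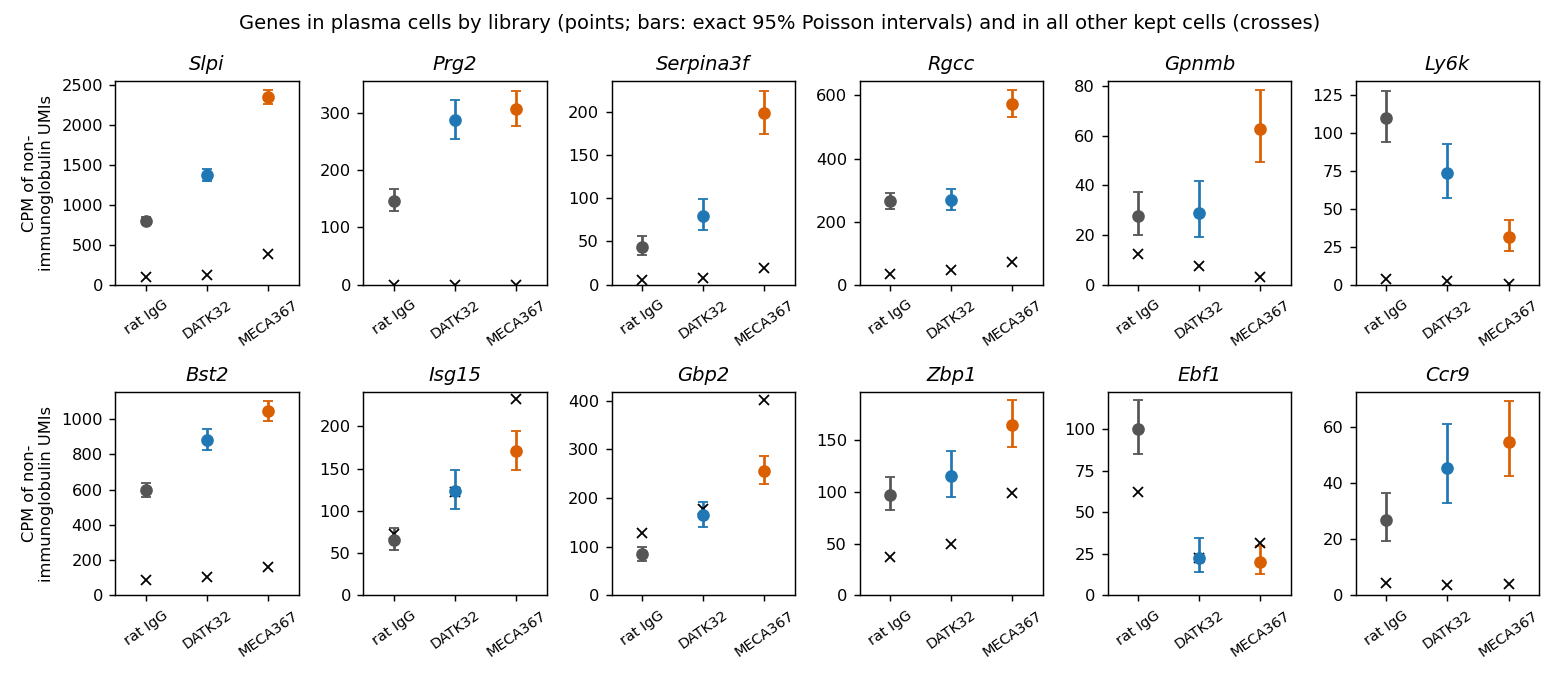
CPM of 12 genes in plasma cells of each library, with exact 95% Poisson intervals as bars and crosses for the other kept cells. Slpi, Prg2, Serpina3f and Bst2 lie lowest in the rat IgG library, and Ly6k and Ebf1 lie highest there.

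Plasmablasts divide and mature plasma cells do not, so UMIs of cell cycle genes were counted. At least 2 UMIs over 23 cycling genes were found in 27.3%, 30.4% and 33.5% of plasma cells with rat IgG, DATK32 and MECA367, and in 25.3%, 28.3% and 24.3% of the other kept cells. After thinning cells with at least 1000 UMIs to that depth and applying the rule anew, the plasma cell values were 12.6%, 9.36% and 7.08%. They stood in the opposite order, while the values before thinning rose in the order of the median depth. The thinned shares of the other kept cells were 19.2%, 18.0% and 12.9%, and so fell in the same order. The 1000 UMIs included immunoglobulin, so plasma cells and other cells were not at equal depth in the remaining genes. At least 5 UMIs were found in 15.3% (12.7 to 18.2), 13.7% (10.1 to 18.1) and 10.97% (7.76 to 14.9) of plasma cells, before thinning. No pair of libraries was called different by these shares. Of single cycling genes, 4 of 19 measured were lower and 0 higher with DATK32 (median log2 ratio -0.35), and 6 of 21 lower and 0 higher with MECA367 (-0.52), beside 1.42% and 6.31% lower over all genes. Cells led by neutrophil markers, mature forms of which do not divide, gave 11.6% to 13.9% at 2 UMIs and 4.46% to 4.81% at 5, at medians of 1117 to 2575 UMIs, shallower than plasma cells. Cycling below means only a cell with at least 5 UMIs of these genes.

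Many plasma cell identity genes were lower in cycling than in resting plasma cells, and a few metabolic genes were higher; at equal depth fewer of both passed. This comparison was added after the data were seen. It set cells with at least 5 cycling UMIs (107, 43 and 35) against cells with at most 1 (508, 218 and 212) within each library, so that the 3 libraries serve as replicates. Counts were summed and tested with edgeR with library as a block, without the cycling genes. At a 5% false discovery rate 734 of 5810 genes (12.6%) changed, 406 higher (6.99%) and 328 lower (5.65%) in cycling cells, with a median log2 difference of 0.02 over all genes. Cycling cells were deeper, with medians of 5133, 7952 and 10841 UMIs against 3092.5, 4572.5 and 6246, and immunoglobulin took a smaller part of them, 28.3%, 33.5% and 41.1% against 53.3%, 56.1% and 57.1%. The mice behind the libraries also had different treatments, which the block takes up.

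Of the 20 plasma cell identity genes tested, 13 were lower and 0 higher in cycling cells, with a median of -0.69. Tnfrsf17 stood at 139, 114 and 181 CPM in cycling and 268, 268 and 349 CPM in resting cells of the rat IgG, DATK32 and MECA367 libraries (log2 difference -1.11, SE 0.16, edgeR adjusted p = 0.000404, lower in 3 of 3 libraries). Ly6c2, a surface marker of mature plasma cells, was at 439, 892 and 401 against 1669, 1702 and 1333 CPM (-1.61, SE 0.15, edgeR adjusted p = 1.13e-05). Txndc5, a disulfide isomerase abundant in plasma cells, was at 1300, 1192 and 1365 against 1956, 2023 and 2569 CPM (-0.84, SE 0.09, edgeR adjusted p = 5.26e-05). Irf4 (-0.96, SE 0.24, edgeR adjusted p = 0.0176) and Sdc1 (-0.61, SE 0.15, edgeR adjusted p = 0.0133) were lower as well. Prdm1 (-0.47, edgeR adjusted p = 0.121) and Pou2af1 (-0.41, edgeR adjusted p = 0.101), a coactivator of immunoglobulin genes, did not pass.

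The secretory genes were lower in part, beside 5.65% lower over all genes. Txndc5 and Edem1, counted here, were also counted as identity genes. Of the chaperones 10 of 24 were lower and 0 higher (median -0.25), of the unfolded protein response and disposal 12 of 20 lower (-0.61), of the translocon 12 of 33 lower (-0.34), and of transport to the Golgi 1 of 24 lower (-0.31). Ssr4 was at 1459, 1472 and 1894 against 2634, 2527 and 3715 CPM (-0.96, SE 0.08, edgeR adjusted p = 3.76e-06). Edem2 was at 278, 316 and 278 against 531, 524 and 586 CPM (-1.0004, SE 0.14), and Herpud1, which helps to export misfolded proteins from the endoplasmic reticulum, was lower too (-0.68, SE 0.08). Hspa5 differed by less (-0.26, SE 0.07, edgeR adjusted p = 0.0204). Hsp90b1 did not pass (-0.22, edgeR adjusted p = 0.144).

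Beside 5.65% lower over all genes, survival genes were lower in 7 of 13 cases (median -0.66). Among them were Mcl1 (-0.61, SE 0.12), Cd28 (-0.78, SE 0.16) and Bcl2 (-0.80, SE 0.23). The 7 include Tnfrsf17 and Tnfrsf13b, which were also counted as identity genes. Without cells that held markers of B cells or other lineages, 5 of 13 were lower, and Bcl2 was not among them. Of 18 homing genes 2 were lower, Ccr9 (-1.16, SE 0.34, edgeR adjusted p = 0.0351) and Cd81. Without the cells that held those markers, 4 of 17 were lower and 2 higher, Cd9 and Itgb1. Over all cells, Ccr10 stood at 245, 304 and 247 against 291, 332 and 233 CPM and did not pass (-0.19, edgeR adjusted p = 0.437). Of 17 interferon-induced genes 4 were lower, Bst2, Zbp1, Ifi27l2a and Ly6e. Bst2 was at 331, 495 and 748 against 751, 1066 and 1211 CPM (-1.08, SE 0.12).

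Of 17 genes of amino acid metabolism and glycolysis 5 were higher and 1 lower, with a median of 0.45; at equal depth this median was 0.06. Ldha, which turns pyruvate into lactate, was at 312, 405 and 432 CPM in cycling against 172, 200 and 164 CPM in resting cells (0.99, SE 0.15, edgeR adjusted p = 0.000651, higher in 3 of 3 libraries). Pgk1, a glycolytic kinase, was at 225, 235 and 243 against 126, 107 and 98.9 CPM (0.98, SE 0.17). Psat1 of serine synthesis was at 69.6, 28.4 and 57.9 against 14.0, 19.4 and 12.8 CPM (1.74, SE 0.38), and Gapdh was higher by 0.63 (SE 0.12). The gene that fell was Slc3a2, a chain of amino acid transporters (-1.11, SE 0.14).

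The number of calls depended on the settings. Without the library block 341 genes passed, and 7 of the 20 identity genes were lower; DESeq2 with the block called 225 genes, again with 7 identity genes lower. Leaving out the DATK32 library left 438 calls. With members thinned to 1000 non-immunoglobulin UMIs, 132 of 2203 genes changed (with 77, 27 and 21 cycling cells), and the lower counts became 4 of 17 identity genes (median -0.48), 2 of 23 chaperones (-0.05), 2 of 17 of the unfolded protein response (-0.52), 3 of 32 of the translocon (-0.15) and 1 of 10 survival genes (-0.64). Of the metabolic genes 1 of 10 was then higher, Gapdh, and 1 lower, with a median of 0.06. Without cells that held markers of B cells or other lineages, 726 of 4577 genes (15.9%) changed, 404 higher (8.83%) and 322 lower (7.04%), 529 of them among the 734, and 13 of 18 identity genes were lower. The epithelial list held more of cycling cells, at 0.525%, 0.483% and 0.215% of non-immunoglobulin UMIs against 0.272%, 0.265% and 0.148%, and 7 of its 12 tested genes were higher and 1 lower. Of the stromal list all 7 tested genes were lower, and of the neutrophil list 4 of 6. The part of these markers in the differences was not tested. B cell markers were found in 15.9%, 2.33% and 5.71% of cycling against 9.06%, 1.83% and 2.36% of resting cells.

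**Figure D5:**
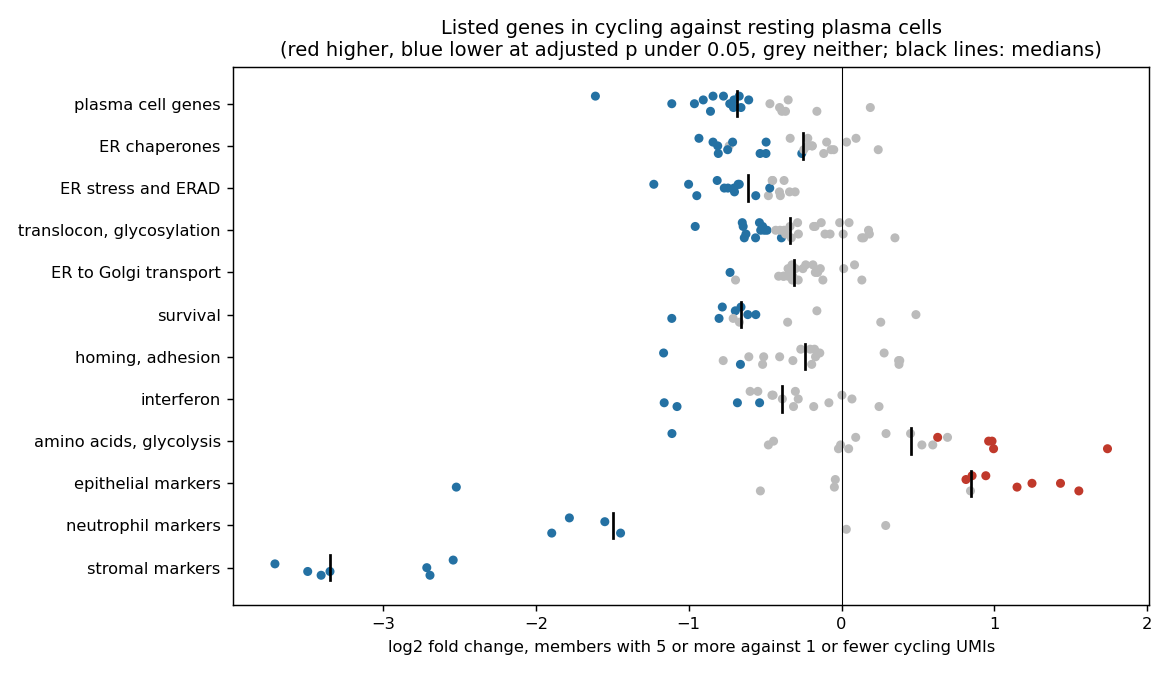
Log2 difference between cycling and resting plasma cells from edgeR for the genes of each list, with 1 point per gene, coloured by whether it passed a 5% false discovery rate, and a black line at the list's median. Plasma cell identity genes lie mostly below 0, with a median of -0.69, and the metabolic genes mostly above it, with a median of 0.45.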

How the data were processed

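Three-prime single-cell RNA was measured in 3 libraries, 1 per group. The deposited matrices list, for 32285 genes, the counts of UMIs in each barcode, not normalized; per the submitters' processing notes the authors used Cell Ranger 6.0.2 and genome build mm10, and the annotation and cell filter are not given in the sources used here. All values were computed from these counts with Python 3.11.15, numpy 2.4.6, scipy 1.17.1, pandas 2.3.3 and R 4.3.3. The plasma cells and all gene lists were chosen with earlier results of these data known.

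Shares carry exact (Clopper-Pearson) 95% intervals, and log2 ratios of shares carry intervals from the cell counts. Gene counts were summed over the plasma cells of a library and scaled to CPM of non-immunoglobulin UMIs, with exact Poisson 95% intervals and 1 count added in ratios; genes needed 50 counts over both libraries. Calls needed a 1.5-fold ratio and intervals apart, and no p-value was computed between groups. PCR duplicates were collapsed by UMI, so intervals cover counting error only, not variation between mice.

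Mature B cells were kept non-plasma cells with at least 3 UMIs over a short list of B cell genes that includes Ms4a1, Cd79a and Cd79b; some genes are not reported here. Leukocytes were plasma cells plus kept cells with more UMIs on a pan-leukocyte list than on epithelial, stromal and endothelial lists. Single genes were named if among the 8 highest or 8 lowest ratios of a comparison, with at least 100 counts, a UMI in 5% of plasma cells of the higher library and a level there at least equal to that of its other cells, or if on a list; not all are given.

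Cycling and resting plasma cells were compared with edgeR 4.0.16 (TMM, quasi-likelihood test, Benjamini-Hochberg adjustment) on sums per library, after edgeR's filter on low counts; the method was tested on simulated data. DESeq2 1.42.0 was an alternative. Genes sharing sequence with relatives, such as Iglc2 and Iglc3, may share counts. Segment sequences come from GENCODE M21 (GRCm38) and promoters from RefSeq (GRCm38.p6).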

Additional observations from a re-analysis of the deposited data

Results flagged for a closer look

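Barcodes above the 10% mitochondrial limit are outside every count given so far. Some of them met the gene rule for plasma cells: 24 of 3442 such barcodes with at least 500 UMIs and 200 genes with rat IgG (0.697%), 15 of 2578 with DATK32 (0.582%) and 7 of 2428 with MECA367 (0.288%). They are listed because these barcodes enter no comparison and hold more than the 3 counts that a count of 0 would allow, which is no test. With them included, the log2 ratio of the plasma cell share against rat IgG was -0.78 for DATK32 and -0.77 for MECA367.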

How the results depend on the processing

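With 1 library per group, differences between groups have no replicate check, and depth per plasma cell differed between the libraries, which limits shares that count UMIs. Several alternatives were chosen after seeing the data: leaving out the leading segment pairs, the 5 UMI limit for cycling, the other segment limits and those of the cycling comparison. The plasma cell share was lower with both antibodies under the alternatives tried, except among plasma and B cells together, where the log2 ratio turned to 0.12 for DATK32 and 0.026 for MECA367, neither called. Its other values that moved beyond the counting interval were -1.09 for DATK32 and -1.14 for MECA367 after thinning, -0.59 and -0.57 without the leading pairs (the latter no longer called), -1.02 for MECA367 at a 5% mitochondrial limit, -1.18 for MECA367 among leukocytes, and 0.40 there between DATK32 and MECA367. The log2 ratio of the cycling share, 0.15, 0.30 and -0.14 in the 3 comparisons and not called, became -0.43, -0.84 and 0.40 after thinning and -0.16, -0.48 and 0.32 with at least 5 UMIs, also not called. The lambda share remained lower without the cells called for the leading pairs, at -2.02 and -1.31, with cells lacking a called pair kept in. The leading rat IgG pair held 22% under stricter segment limits. IgA shares moved by less than their intervals under the alternatives tried.

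Genes called between libraries numbered 237 for DATK32 when each cell was scaled to its own total, 394 and 419 for MECA367 without cells holding other-lineage markers and at a 5% mitochondrial limit, and 205 between DATK32 and MECA367 without those cells; the cause was not tested. Of 384 values of named genes under alternatives, 361 stayed on their side of the call, 18 fell below it, 5 passed it, and 0 reversed. F10 (0.38), Ms4a4c (0.14) and Gbp4 (0.81) lost their MECA367 calls without cells holding other-lineage markers. Cycling against resting cells gave 734 genes with the library as a block and 341 without it, 225 with DESeq2, 355 with at least 2 against 0 cycling UMIs, 132 after thinning, 1097 of 16615 without the filter on low counts, and 438 to 858 when 1 library was left out. No paired analysis was possible between the groups because each has only replicate 1. The planned tests between antibody classes, with their alternatives, were not run, since fewer than 20 cells of a class were present per library.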

Other observations

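Several regulators of immunity were read in plasma cells but belong to no comparison above. Cd274 (PD-L1), the ligand of an inhibitory receptor on T cells, stood at 197, 233 and 333 CPM with rat IgG, DATK32 and MECA367, and was called higher with MECA367 (log2 ratio 0.76), while the other kept cells held 49.6, 61.2 and 138 CPM. Nos2, the inducible nitric oxide synthase known from IgA plasma cells of the gut, was at 13.2, 61.0 and 83.7 CPM and called higher with both (2.17 and 2.61), though the other kept cells held as much or more in most libraries, at 31.0, 54.5 and 132 CPM. Nos2 UMIs were in 1.86%, 5.11% and 6.27% of plasma cells, 5 cells held 60%, 67.8% and 71.2% of them, and plasma cells with no B cell marker and at most 1% other-lineage UMIs held 5.07, 38.5 and 16.8 CPM. Pigr, the epithelial receptor for dimeric IgA, was at 398, 352 and 126 CPM in plasma cells against 1441, 1292 and 793 CPM around them. Whether plasma cells express Pigr or carry it from epithelial RNA was not tested.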
